A study of Mus musculus with 10 samples.

Results

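The leukocyte homing adhesion molecules described here are 9 genes, *Icam1*, *Icam2*, *Vcam1*, *Sele*, *Selplg*, *Itgal*, *Itgb2*, *Itga4* and *Itgb1*, taken by gene symbol from the mouse PanCancer Immune panel of NanoString. All 9 were measured, among 770 gene probes in all. The panel counts RNA molecules with color-coded hybridization probes and no amplification. RNA came from 10 YUMMER1.7 tumors, of which 5 had grown in WT mice and 5 in Siah2-/- mice (Siah2 KO). YUMMER1.7 is a mouse melanoma line with mutant *Braf* and without *Cdkn2a*, and the same cells were injected into both kinds of host, so the hosts lacked Siah2 and the injected cells did not. Siah2 is a ubiquitin ligase. The labels place collection at day 11 after injection, while a legend of the study gives a day earlier, and they give neither the age nor the sex of the mice. In the labels the 5 WT replicates are numbered 2 to 6, and the Siah2 KO replicates 1, 2, 3, 5 and 6. The general description of the series names another melanoma line and another knockout, and the labels of the single tumors were followed instead. Siah2 itself was not measured, so the genotypes could not be checked against it. Nothing in the labels says whether the tumors of a group shared a litter, a cartridge or a day, and p-values measure the spread between these tumors.

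Leukocytes leave the blood in steps that each use a pair of adhesion molecules. Selectins such as E-selectin, made by *Sele* on inflamed endothelium, catch and slow rolling cells through carbohydrate-bearing ligands such as PSGL-1, made by *Selplg*. Firm arrest follows when leukocyte integrins bind ligands of the immunoglobulin family, with LFA-1, the dimer of *Itgal* and *Itgb2* products, binding ICAM-1 and ICAM-2, and VLA-4, the dimer of *Itga4* and *Itgb1* products, binding VCAM-1. Inflammatory cytokines raise several of the endothelial partners, and in melanoma these pairs take part in the entry of T cells and myeloid cells from tumor vessels.

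Values below are normalized counts as deposited, and differences are Siah2 KO minus WT on the log2(value + 1) scale with a standard error (SE). A gene was called at an adjusted p under 0.05 in limma's moderated test, two-sided, with Benjamini-Hochberg adjustment over all 770 probes. Of the 9 homing genes, 5 were higher in Siah2 KO tumors, *Itgb2*, *Itgal*, *Sele*, *Icam2* and *Selplg*, and 1 was lower, *Vcam1*. *Icam1*, *Itga4* and *Itgb1* were not called. Over all probes, 41.0% were called, 31.3% higher and 9.74% lower, so calls in this comparison were common. In 4 of the 9 genes, all among the higher ones, the lowest Siah2 KO tumor exceeded the highest WT tumor, as it did for 24.5% of all probes. The median difference was 0.55 over the 9 genes and 0.24 over all 770 probes. Probes bind with different efficiency and levels of different genes are therefore not compared, only differences between groups.

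A whole tumor holds many kinds of cells, and fewer cells of a type and less RNA per cell cannot be told apart in these values. The sum of 8 leukocyte genes was 3867 to 4570.4 normalized counts in WT and 5289.9 to 7762 in Siah2 KO tumors, highest in KO replicate 5. That tumor was the highest Siah2 KO tumor for 7 of the 9 homing genes and the lowest for 1, *Sele*. Without it 6 homing genes were called, with differences of 1.04 for *Itgb2*, 0.76 for *Itgal*, 0.87 for *Sele*, 0.49 for *Icam2*, 0.40 for *Selplg* and −0.47 for *Vcam1*. The part of leukocyte number in these differences was not tested, and values relative to leukocyte genes are given further on.

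**Figure D1:**
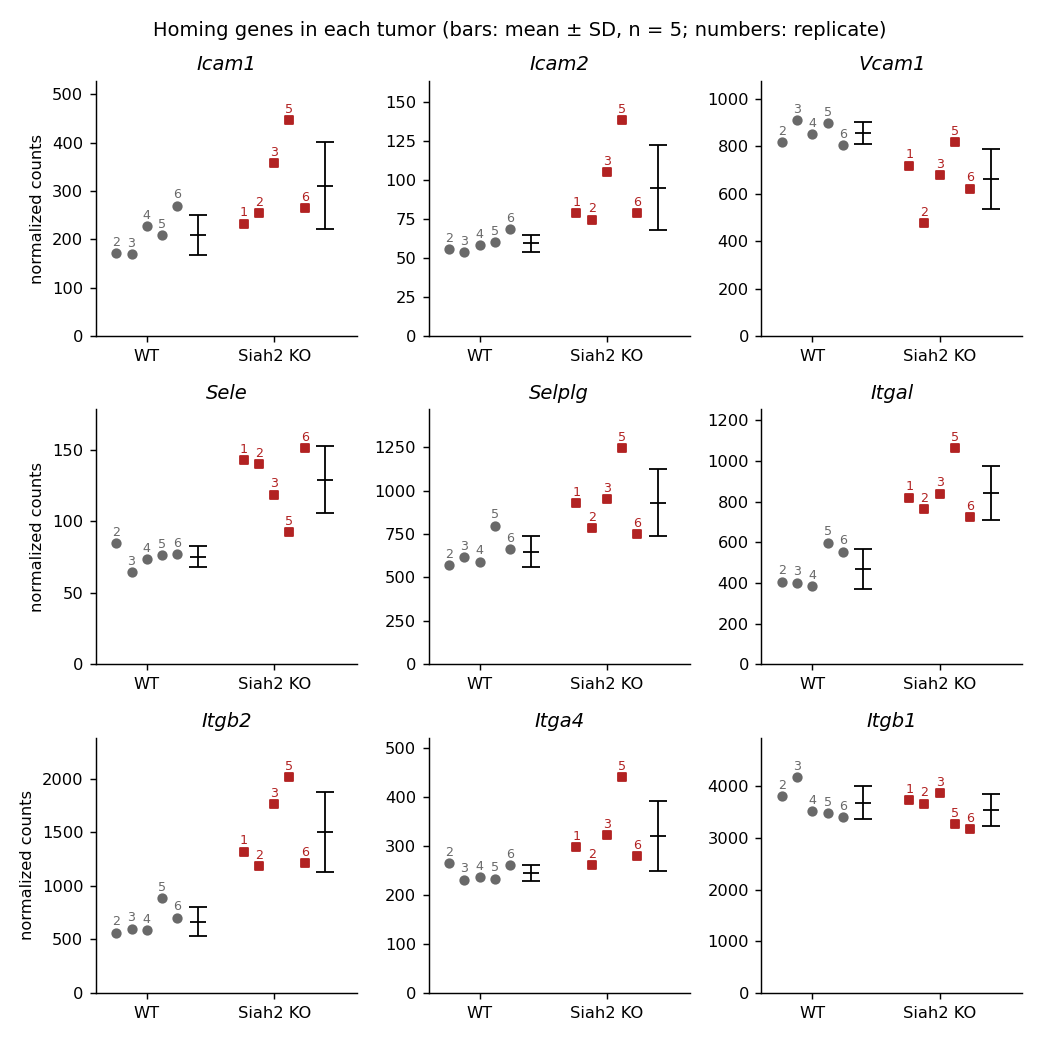
Normalized counts of the 9 homing genes (y axes, from 0) in 5 WT tumors (gray circles) and 5 Siah2 KO tumors (red squares), numbered by replicate, with the mean ± SD of each group in black. The groups are apart for *Icam2*, *Sele*, *Itgal* and *Itgb2*, and KO replicate 5 stands at the top of its group in 7 panels and at the bottom for *Sele*.

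Among the genes of the endothelial partners, *Sele*, *Icam1*, *Icam2* and *Vcam1*, *Sele* showed the largest difference in the deposited values. E-selectin is made almost only by activated endothelium. In WT replicates 2 to 6 *Sele* stood at 84.6, 64.7, 73.8, 76.2 and 77.0 normalized counts. In Siah2 KO replicates 1, 2, 3, 5 and 6 it stood at 143, 140.2, 119, 92.7 and 151. The groups were apart, with KO replicate 5 the closest to the WT range. The means were 75.3 ± 7.18 and 129 ± 23.6 (SD, n = 5 each), a difference of 0.75 (SE 0.14) or 1.69-fold. The adjusted p was 0.00223 with limma, and the two-sided exact permutation test over all 252 divisions of the tumors gave 0.0079, the smallest p it allows. With the tumors brought to a common median of the endogenous probes (median scaling) the difference was 0.49 and the call was lost (limma adjusted p = 0.0695), and under quantile normalization it was 0.46 (limma adjusted p = 0.0934).

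*Icam2* encodes a ligand of LFA-1 that resting endothelium, platelets and some leukocytes carry without a need for cytokines. It was measured at 55.9, 53.9, 58.1, 60.4 and 68.3 normalized counts in WT replicates 2 to 6. The Siah2 KO replicates 1, 2, 3, 5 and 6 had 78.5, 74.5, 104.8, 138 and 78.9. The groups did not overlap, and in the Siah2 KO group replicates 3 and 5 stood above the other 3 tumors. The mean rose from 59.4 ± 5.58 to 95.05 ± 27.1 (SD, n = 5 each), a difference of 0.63 (SE 0.17) or 1.55-fold, with an adjusted p of 0.0139 by limma and an exact permutation p of 0.0079. The difference stayed above 0 under every scaling tried and was smallest, at 0.34, under quantile normalization. Its call held there (limma adjusted p = 0.0467) and with median scaling (0.37, limma adjusted p = 0.0367). The call was lost under positive control scaling (0.47, limma adjusted p = 0.42).

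ICAM-1, the cytokine-inducible ligand of LFA-1, is carried by endothelium, leukocytes and tumor cells. *Icam1* counts were 172, 169.9, 227, 209.6 and 269.8 in WT replicates 2 to 6. They were 233, 254, 357, 447 and 265 in Siah2 KO replicates 1, 2, 3, 5 and 6. The groups overlapped, since WT replicate 6 was above 3 of the Siah2 KO tumors and only KO replicates 3 and 5 exceeded it. The means were 209.6 ± 41.6 and 311 ± 89.7 (SD, n = 5 each), and the difference of 0.55 (SE 0.20, 95% interval 0.094 to 0.998) did not pass, with an adjusted p of 0.054 by limma and an exact permutation p of 0.0397. It passed without WT replicate 6 (limma adjusted p = 0.0356) and without KO replicate 1 (limma adjusted p = 0.0392).

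*Vcam1* was the only homing gene called lower. VCAM-1, the ligand of VLA-4, is carried by activated endothelium and also by stromal cells and macrophages. WT replicates 2 to 6 had 818, 910.4, 849, 899 and 805 normalized counts, a narrow range. Siah2 KO replicates 1, 2, 3, 5 and 6 had 718, 475, 678, 818 and 621. KO replicate 5 lay inside the WT range and the other 4 Siah2 KO tumors lay below it. The mean fell from 856 ± 47.1 to 662 ± 127 (SD, n = 5 each), a difference of −0.39 (SE 0.14, 95% interval −0.70 to −0.087), with an adjusted p of 0.0426 by limma and an exact permutation p of 0.0159. The call was lost with any tumor other than KO replicate 5 left out, at differences of −0.43 to −0.28 and limma adjusted p of 0.0524 to 0.0896. It was firmer where the values were scaled to the median (−0.66, limma adjusted p = 0.00172) or by quantiles (−0.78, limma adjusted p = 0.000581).

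Ratios within a tumor do not depend on a factor per tumor, although quantile normalization can change them, and 5 ratios between homing genes were tested, with exact permutation p adjusted over the 5. The log2 ratio of *Icam2* over *Vcam1* was −3.85, −4.05, −3.85, −3.87 and −3.54 in WT replicates 2 to 6. It was −3.18, −2.65, −2.68, −2.55 and −2.96 in Siah2 KO replicates 1, 2, 3, 5 and 6, so the groups did not overlap. The shift was 1.03 (SE 0.14), with an exact p of 0.0079 and 0.0132 after adjustment. The ratio of *Sele* over *Vcam1* rose by 1.15 (SE 0.25), from a range of −3.79 to −3.26 to a range of −3.13 to −1.75, without overlap (exact p = 0.0079, adjusted 0.0132). For *Icam1* over *Vcam1* the shift was 0.94 (SE 0.20), with KO replicate 1 just below WT replicate 6 and an exact p of 0.0159, also after adjustment. These 3 shifts kept their direction and passed with any single tumor left out and under quantile normalization. They share *Vcam1* as the denominator, and *Vcam1* itself lay at −0.63 relative to the median of all probes, so a probe at that median also moved up against it.

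**Figure D2:**
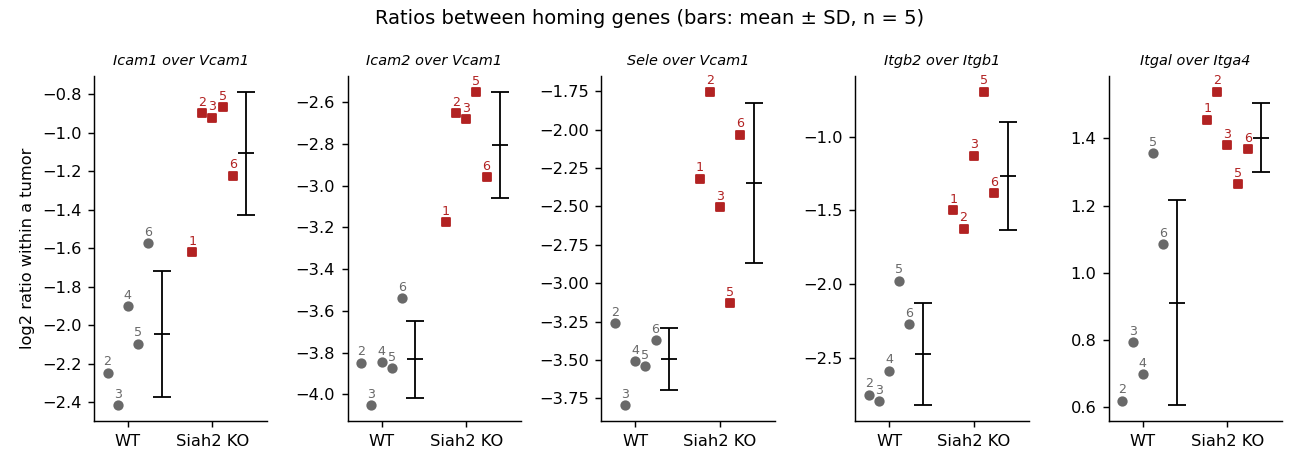
Log2 ratios of normalized counts between homing genes within each tumor (y axes, not starting at 0) in 5 WT (gray circles) and 5 Siah2 KO tumors (red squares), numbered by replicate, with mean ± SD in black. Siah2 KO tumors are apart from WT tumors for *Icam2* over *Vcam1*, *Sele* over *Vcam1* and *Itgb2* over *Itgb1*, and overlap for the other 2 ratios.

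Promoters are shown for *Icam1* and *Sele*, the genes of endothelial partners that had a promoter entry. Both genes are known targets of NF-kappa B, which some of the cytokines described below activate. *Vcam1*, a ligand of activated endothelium that was called lower, and *Icam2* had no promoter entry. *Icam1* itself was not called, and the part of NF-kappa B in these differences was not tested. The sequences are RefSeq's for GRCm38.p6, the 250 bases before the annotated start on the plus strand, read 5′ to 3′, at chr9:21015690-21015939 for *Icam1* and chr1:164047984-164048233 for *Sele*. Capitals mark matches on either strand to a kappa B pattern, GGNNNTTCC, and to a GAS pattern, TTCNNNGAA, an element of interferon gamma responses.
Icam1: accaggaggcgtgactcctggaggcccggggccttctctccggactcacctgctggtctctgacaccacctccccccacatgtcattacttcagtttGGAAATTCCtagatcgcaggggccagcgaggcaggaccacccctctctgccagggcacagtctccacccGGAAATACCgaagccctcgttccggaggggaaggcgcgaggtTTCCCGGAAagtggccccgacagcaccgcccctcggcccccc
Sele: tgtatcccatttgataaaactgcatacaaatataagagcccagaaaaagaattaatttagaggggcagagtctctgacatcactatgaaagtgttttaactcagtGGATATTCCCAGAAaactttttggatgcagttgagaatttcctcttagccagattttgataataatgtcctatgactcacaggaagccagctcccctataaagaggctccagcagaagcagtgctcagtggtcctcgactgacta
The *Icam1* window held 2 kappa B matches, starting 153 and 84 bases before the start, and 1 GAS match 42 bases before it. The *Sele* window held 1 kappa B match, starting 145 bases before the start, which overlapped a GAS match starting 140 bases before it. Of 32851 promoter windows of this length, 15.7% held a kappa B match and 7.02% a GAS match. Among the homing genes 4 of 9 had a promoter entry, and of the other two the *Itgb1* window held 1 kappa B match and no GAS match and the *Itga4* window held neither. A PU.1 pattern, GAGGAA, was also searched and is not marked. It had 1 match each in the *Sele* and *Itgb1* windows and none in those of *Icam1* and *Itga4*, and 23.3% of all windows held it. A match describes letters in the window and not a bound site.

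*Itgb2*, the beta 2 subunit shared by LFA-1, Mac-1 and other leukocyte integrins, had the largest difference of the 9 homing genes. It stood at 564, 602, 584, 884 and 704 normalized counts in WT replicates 2 to 6. In Siah2 KO replicates 1, 2, 3, 5 and 6 it stood at 1321, 1188, 1767, 2019 and 1215. No Siah2 KO tumor came near the WT range, and KO replicates 3 and 5 were the highest. The mean rose from 667 ± 133 to 1502 ± 371 (SD, n = 5 each), a difference of 1.16 (SE 0.19) or 2.23-fold, with an adjusted p of 0.00106 by limma and an exact permutation p of 0.0079. It ranked 59 of 770 probes from the top, and it alone among the homing genes kept its call when the positive control probes took the place of the reference genes in scaling (0.99, limma adjusted p = 0.0487).

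*Itgal*, the alpha L subunit that makes LFA-1 with beta 2, rose as well. WT replicates 2 to 6 had 407, 402, 386, 599 and 555 normalized counts. Siah2 KO replicates 1, 2, 3, 5 and 6 had 819.6, 763, 839.7, 1062 and 724. The groups did not overlap, although WT replicates 5 and 6 were closer to the Siah2 KO tumors than the other 3 WT tumors were. The means were 469.8 ± 99.4 and 842 ± 132 (SD, n = 5 each), a difference of 0.85 (SE 0.16) or 1.80-fold, with an adjusted p of 0.00218 by limma and an exact permutation p of 0.0079. Under quantile normalization the difference was 0.44 and still passed (limma adjusted p = 0.0213).

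The VLA-4 subunits showed smaller differences and neither was called. *Itga4*, the alpha 4 subunit, had 265, 231, 237, 233 and 261 normalized counts in WT replicates 2 to 6. Its Siah2 KO values were 298, 262, 322, 441 and 279.8 in replicates 1, 2, 3, 5 and 6. The Siah2 KO tumors were above the WT range except replicate 2, which lay just inside it. The difference was 0.36 (SE 0.14, 95% interval 0.053 to 0.67), with an adjusted p of 0.0589 by limma and an exact permutation p of 0.0159. Without KO replicate 2 it passed (0.43, limma adjusted p = 0.0363), and without KO replicate 5 it was 0.24 (limma adjusted p = 0.0695).

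*Itgb1*, the beta 1 subunit that most cells of a tumor carry, tumor cells and fibroblasts included, stood at 3804, 4181, 3517, 3484 and 3408 normalized counts in WT replicates 2 to 6. In Siah2 KO replicates 1, 2, 3, 5 and 6 it stood at 3729.5, 3663, 3860.3, 3262 and 3172. The ranges overlapped over most of their length. The means were 3679 ± 318 and 3537 ± 303 (SD, n = 5 each), and the difference of −0.057 (SE 0.094, 95% interval −0.27 to 0.15) did not pass (limma adjusted p = 0.648). The interval is the tightest among the homing genes. Relative to the median probe *Itgb1* was lower, at −0.32 with median scaling (limma adjusted p = 0.0478) and −0.31 with quantile normalization (limma adjusted p = 0.0178).

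The log2 ratio of *Itgb2* over *Itgb1* was −2.75, −2.80, −2.59, −1.98 and −2.27 in WT replicates 2 to 6. In Siah2 KO replicates 1, 2, 3, 5 and 6 it was −1.50, −1.62, −1.13, −0.69 and −1.38. The shift of 1.21 (SE 0.23) separated the groups, with an exact permutation p of 0.0079 and 0.0132 adjusted over the 5 ratios. The alpha subunits differed less. The log2 ratio of *Itgal* over *Itga4* rose by 0.49 (SE 0.14), from a range of 0.62 to 1.36 to a range of 1.26 to 1.54, with WT replicate 5 inside the Siah2 KO range and an exact permutation p of 0.0159, also after adjustment. Under quantile normalization these 2 shifts were 1.05 and 0.39, and both still passed.

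*Selplg*, which makes the selectin ligand PSGL-1 on nearly all leukocytes, was measured at 573, 619, 591, 798 and 663 normalized counts in WT replicates 2 to 6. The Siah2 KO replicates 1, 2, 3, 5 and 6 had 929, 782, 952, 1242 and 749.6. WT replicate 5 was above KO replicates 2 and 6, and KO replicates 1, 3 and 5 exceeded the whole WT group. The means were 649 ± 90.1 and 931 ± 195 (SD, n = 5 each), a difference of 0.51 (SE 0.15) or 1.42-fold, with an adjusted p of 0.0227 by limma and an exact permutation p of 0.0238. Its call was lost without WT replicate 2, 3 or 4, with limma adjusted p of 0.0503 to 0.0546. It was also lost with median scaling (0.24, limma adjusted p = 0.093) and quantile normalization (0.093, limma adjusted p = 0.48).

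Since PSGL-1 and the integrins sit on leukocytes, their genes were also set against the median log2 value of 8 leukocyte genes in the same tumor. Of these, *Ptprc*, *Cd53*, *Cd48* and *Lcp1* were higher in Siah2 KO tumors, by 0.78, 1.10, 0.58 and 0.49. *Cd37*, *Ikzf1*, *Inpp5d* and *Pik3cd* were not called, at 0.014, 0.36, 0.25 and 0.27. None was at the floor in any tumor. The median of the list moved by 0.18 (exact permutation p = 0.254) and its mean by 0.48. Relative to the median, *Itgb2* was higher by 0.97 (SE 0.13, limma adjusted p = 0.000302), *Itgal* by 0.67 (SE 0.14, limma adjusted p = 0.00324) and *Selplg* by 0.32 (SE 0.11, limma adjusted p = 0.0374). *Itga4* at 0.18 (limma adjusted p = 0.322) and *Itgb1* at −0.24 (limma adjusted p = 0.318) did not pass. In this comparison 20.9% of all probes were higher and 11.2% lower.

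The choice of reference mattered for 3 of these genes. With the mean of the list in place of its median, *Itgb2* (0.68, limma adjusted p = 0.00133) and *Itgal* (0.37, limma adjusted p = 0.026) still passed. *Selplg* did not (0.027, limma adjusted p = 0.829), *Itga4* changed sign without passing (−0.12, limma adjusted p = 0.388) and *Itgb1* passed as lower (−0.54, limma adjusted p = 0.0232). The call of *Selplg* relative to the median was also lost without WT replicate 2, 3 or 4 or KO replicate 1, 3 or 6, at differences of 0.28 to 0.33 and limma adjusted p of 0.0599 to 0.0984.

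The genes of the endothelial partners were set against 7 endothelial genes in the same way. These did not move together. *Pecam1* was higher in Siah2 KO tumors (0.88), *Cdh5* (−0.45) and *Vwf* (−0.79) were lower, and *Kdr* (−0.31), *Tek* (−0.71), *Tie1* (−0.17) and *Eng* (−0.15) were not called. Their sum was 1266 to 1387 normalized counts in WT and 1157 to 1339.8 in Siah2 KO tumors. Their median moved by −0.14 (exact permutation p = 0.183) and their mean by −0.24. Relative to the median, *Sele* was higher by 0.90 (SE 0.21, limma adjusted p = 0.00475), *Icam2* by 0.78 (SE 0.14, limma adjusted p = 0.00109) and *Icam1* by 0.69 (SE 0.16, limma adjusted p = 0.00493). *Vcam1* was not called (−0.25, 95% interval −0.54 to 0.04, limma adjusted p = 0.138). Of all probes, 42.2% were higher and 5.58% lower in this comparison. The 3 higher genes, *Sele*, *Icam2* and *Icam1*, kept their calls with the mean as reference and with each tumor left out. Relative to the median of the leukocyte genes instead, *Icam2* was higher (0.45, limma adjusted p = 0.0177) and *Vcam1* lower (−0.58, limma adjusted p = 0.00899). On that scale *Sele* (0.57, limma adjusted p = 0.108) and *Icam1* (0.36, limma adjusted p = 0.121) did not pass.

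**Figure D3:**
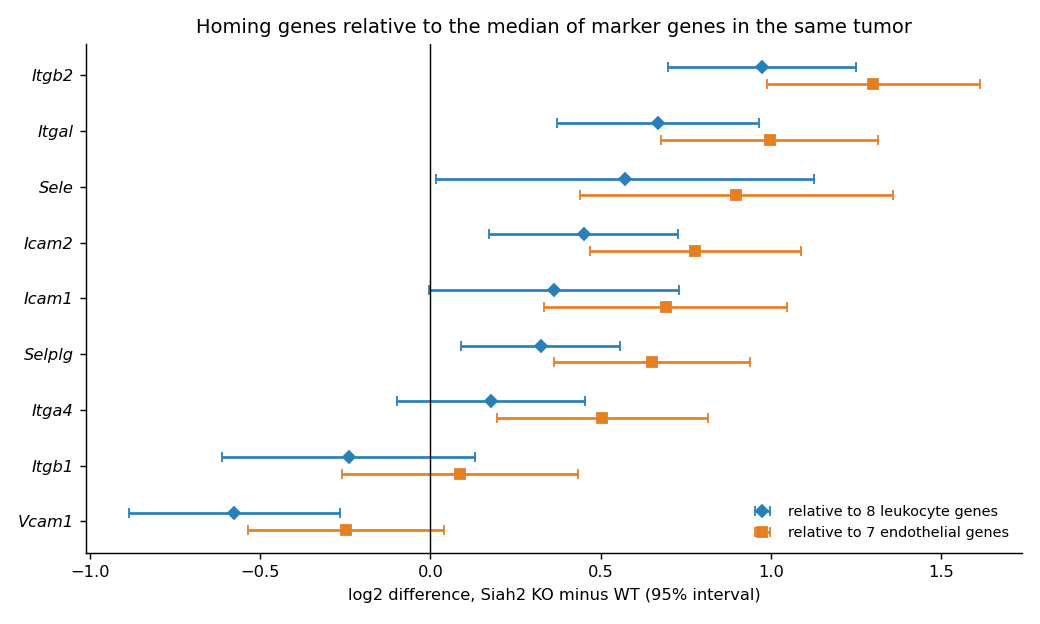
Log2 difference, Siah2 KO minus WT (x axis, bars 95% intervals), of the 9 homing genes after subtracting in each of 10 tumors the median log2 value of 8 leukocyte genes (blue diamonds) or 7 endothelial genes (orange squares). The intervals of *Itgb2*, *Itgal*, *Icam2*, *Selplg* and *Sele* lie above 0 on both scales, although *Sele* was not called relative to leukocyte genes. *Vcam1* lies below 0 relative to leukocyte genes, and its interval includes 0 relative to endothelial genes.

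Of 10 other integrin subunit genes on the panel, 3 were higher, 2 lower and 5 not called, against 31.3% higher and 9.74% lower over all probes. Their median difference was −0.18, and that of all probes 0.24. Both other alpha partners of beta 2 on the panel were higher. *Itgam*, the alpha M subunit of Mac-1 on neutrophils and macrophages, was at 299 to 392 normalized counts in WT and 409 to 752 in Siah2 KO tumors, a difference of 0.76 (SE 0.16, limma adjusted p = 0.0039). *Itgax*, the alpha X subunit known from dendritic cells and macrophages, was at 56.5 to 94.4 in WT and 98.5 to 149 in Siah2 KO tumors, a difference of 0.86 (SE 0.18, limma adjusted p = 0.00383). Neither gene's groups overlapped, so the beta 2 subunit and its 3 measured alpha partners were all called higher.

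Of the alpha subunits that pair with beta 1, only *Itga1* was called. *Itga1*, part of a collagen receptor, was lower, at 433 to 601 normalized counts in WT and 279.8 to 446 in Siah2 KO tumors (−0.49, SE 0.14, limma adjusted p = 0.0188). *Itga5*, part of the fibronectin receptor, was at 891 to 1017 in WT and 1029 to 1128 in Siah2 KO tumors. Its groups did not overlap but its difference of 0.17 (SE 0.075) was not called (limma adjusted p = 0.102). *Itga6*, part of a laminin receptor, was at −0.15 (SE 0.15, limma adjusted p = 0.477), and *Itga2*, part of another collagen receptor, at −0.21 (SE 0.26, limma adjusted p = 0.541). *Itgae*, the alpha E subunit of an integrin that binds E-cadherin and marks some T cells and dendritic cells, pairs with neither beta 1 nor beta 2. It was at 37.5 to 66.4 in WT and 11.9 to 41.0 in Siah2 KO tumors (−1.15, SE 0.35, limma adjusted p = 0.0235). *Itgb3*, a beta subunit of platelets, endothelium and macrophages, was higher without overlap (0.69, SE 0.14, limma adjusted p = 0.0039).

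**Figure D4:**
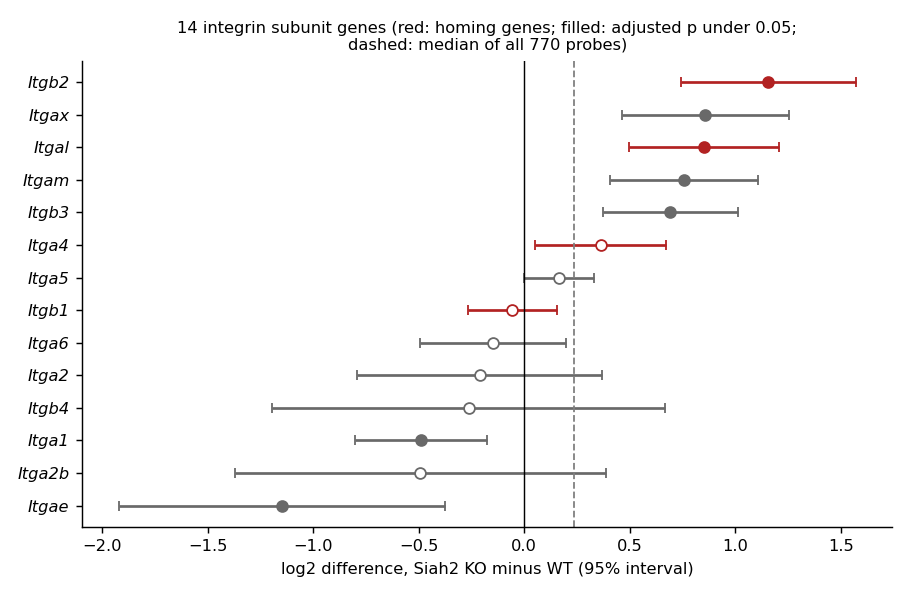
Log2 difference, Siah2 KO minus WT (x axis, bars 95% intervals), of the 14 integrin subunit genes on the panel over 10 tumors, with the 4 homing genes in red, called genes filled and the median of all 770 probes dashed. *Itgb2* with its alpha partners *Itgal*, *Itgam* and *Itgax* lies above the dashed line, *Itgb1* lies near 0, and *Itga1* and *Itgae* lie below 0.

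Marker genes of several cell types also differed between the groups, against 31.3% of all probes called higher and 9.74% lower. Of 6 T cell genes 3 were higher and none lower, with sums of 427 to 558 normalized counts in WT and 567 to 1042 in Siah2 KO tumors. Of 5 neutrophil genes 3 were higher, *Csf3r*, *Trem1* and *Fpr2*, and none was lower. Their sums were 312 to 364 in WT and 659 to 1320.4 in Siah2 KO tumors. *Fpr2* alone made up 69.5 to 132 and 281 to 768 of these sums. *Cxcr2* and *S100a8* were not called and overlapped between groups, *S100a8* at 119 to 158 in WT and 110 to 384 in Siah2 KO tumors. Of 6 macrophage genes 2 were higher and 2 lower, with overlapping sums of 6386 to 7953 and 6316 to 10231.5. Of 5 fibroblast genes 4 were lower, with sums of 17125 to 22093 in WT and 10976 to 12818 in Siah2 KO tumors. Of 3 melanoma genes *S100b* and *Cspg4* were lower and *Mcam* was not called, and *S100b* reached at most 2.51 normalized counts in Siah2 KO tumors, within the level of the negative controls. The part of these cells in the differences of the integrin genes and of *Vcam1* was not tested.

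Further genes of rolling, junctions and transmigration were mixed, with 3 of 15 higher, 2 lower and 10 not called, and a median of 0.17. *Spn*, which makes CD43, a leukocyte sialoglycoprotein that can also bind E-selectin, was at 142 to 204 normalized counts in WT and 174 to 280.3 in Siah2 KO tumors (0.50, SE 0.15, limma adjusted p = 0.0208). *Spn* thus moved the same way as *Selplg*. The junction genes split. *Pecam1*, which makes CD31 on endothelium, platelets and leukocytes, was at 143 to 181 in WT and 238 to 329.6 in Siah2 KO tumors (0.88, SE 0.11, limma adjusted p = 0.000394). *Cdh5*, which makes the endothelial cadherin of adherens junctions, was at 361 to 459 in WT and 264 to 337 in Siah2 KO tumors (−0.45, SE 0.10, limma adjusted p = 0.00524). Neither overlapped between groups. *Cd99*, a molecule of late transmigration, was lower (−0.36, SE 0.11, limma adjusted p = 0.0248).

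Of 12 genes for cytokines that act on endothelial adhesion molecules and for their receptors, 4 were higher, 1 lower and 7 not called, with a median of 0.26. *Tnf* was at 37.4 to 52.9 normalized counts in WT and 85.7 to 175 in Siah2 KO tumors (1.52, SE 0.19, limma adjusted p = 0.0003). *Il1b* was at 179.6 to 349.9 and 613 to 1069.6 (1.51, SE 0.21, limma adjusted p = 0.000571). *Ifng* was at 6.65 to 16.6 and 25.3 to 77.0 (1.92, SE 0.33, limma adjusted p = 0.00145). The groups did not overlap for these 3 cytokines. *Il1a* was low in all tumors, at 5.23 to 11.6 and 10.5 to 39.1 (1.21, SE 0.36, limma adjusted p = 0.021). The lower gene was *Il1r1*, the signaling receptor of both interleukins, at 711 to 872 in WT and 418 to 558 in Siah2 KO tumors (−0.67, SE 0.10, limma adjusted p = 0.000852). The part of these cytokines in the differences of *Sele*, *Icam1*, *Icam2* and *Vcam1* was not tested.

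How each homing gene varied over the 10 tumors was compared with every other probe whose mean reached 20 normalized counts, by the root mean square difference of the log2 profiles after centering each gene on its own mean. The closest profile to *Icam1* was that of *Icam2*, at 0.13. The closest to *Icam2* was *Nod1* at 0.086, to *Vcam1* *Igf1r* at 0.13, and to *Selplg* *Spn* at 0.083. For the integrin genes other than *Itgb2* it was *Ptprc* at 0.10 for *Itgal*, *Cd74* at 0.11 for *Itga4* and *Tnfsf12* at 0.076 for *Itgb1*. *Sele* had the most distant neighbor, *Klra4* at 0.175, and the nearest homing gene to it was *Itgal* at 0.37. These distances are descriptions over the same 10 tumors that show the group difference and carry no test.

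The differences depended on the scaling. The authors' factor per tumor, set by 20 reference genes, was estimated here from the regular steps between low deposited values. The estimate was 0.917 to 1.32 in WT and 1.03 to 1.60 in Siah2 KO tumors. Median scaling moved the median of all probes by −0.25 and split the calls into 163 higher and 152 lower, in place of 241 and 75. Quantile normalization moved it by −0.28, gave 153 higher and 181 lower, and moved the homing genes by unequal amounts. Scaling to the positive controls moved it by −0.16 and left 60 higher and 35 lower. None of the 9 homing genes changed sign under any of the 4 other scalings. Measured against the median of all probes as deposited, *Itgb2* was higher by 0.92, *Itgal* by 0.61, *Sele* by 0.52, *Icam2* by 0.40, *Icam1* by 0.31, *Selplg* by 0.27 and *Itga4* by 0.12, while *Itgb1* was lower at −0.29 and *Vcam1* at −0.63.

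**Figure D5:**
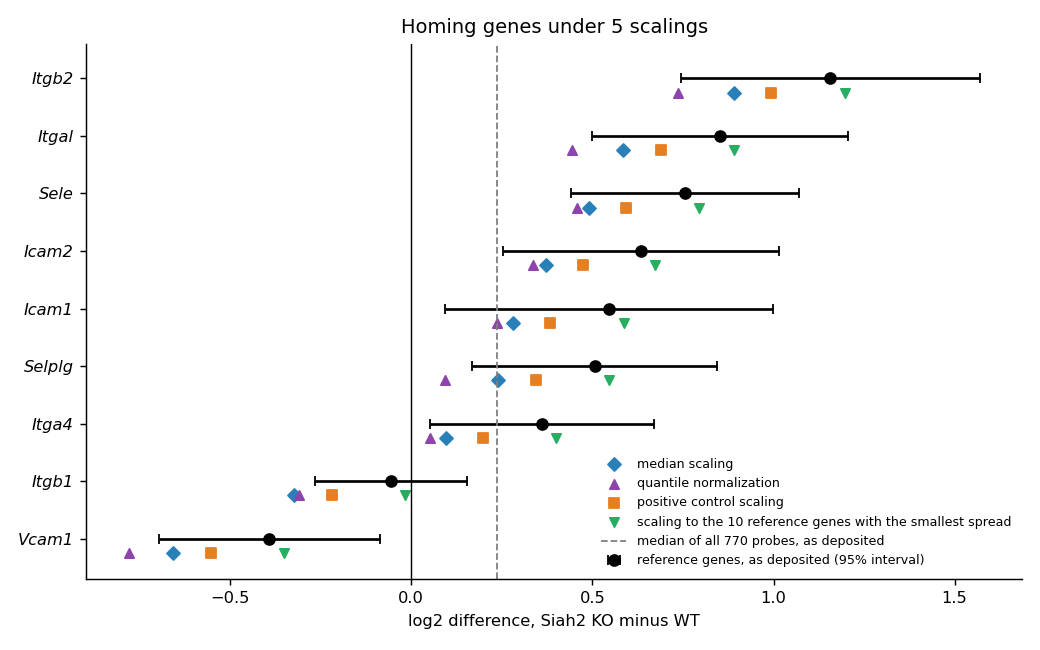
Log2 difference, Siah2 KO minus WT (x axis), of the 9 homing genes over 10 tumors with the deposited scaling (black, bars 95% intervals) and 4 other scalings (colored points), and the median of all 770 probes as deposited (dashed). Each gene keeps its side of 0 under all 5 scalings, with *Itgb2* highest and *Vcam1* lowest, and median scaling and quantile normalization move every gene to the left.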

How the data were processed

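RNA of 10 tumors was measured with the NanoString panel of 784 probes, 750 endogenous genes, 20 reference genes, 6 positive and 8 negative controls. The authors deposited normalized counts, a signal made in nSolver with a factor per tumor from the geometric mean over the 20 reference genes. Judged from the deposited values, a background constant had been subtracted, which the methods do not describe. The floor was 1, or near the tumor's factor where that was above 1. *Glycam1*, for example, stood at 1.0 in WT replicate 3 and at 1.6 in KO replicate 2, whose estimated factor was 1.60. The factor of each tumor was estimated from the regular steps between low deposited values. With that estimate divided out, the sums over the 770 probes were 382877 to 581603 counts per tumor. Depth did not limit the homing genes, all of which lay above the highest negative control of 10.7. The number of tumors limits the precision.

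From these values log2(value + 1) was computed and Siah2 KO and WT tumors were compared with limma 3.58.1 in R 4.3.3. All 770 probes entered the fit, with no covariate. Exact permutation tests used all 252 divisions of the tumors. The authors' own test on log2 values, with equal variances, is an alternative. Other alternatives were 4 scalings, a filter and a floor at 20, a pseudocount of 10, endogenous probes only, unequal variances, an intensity trend, the replicate number as a block and leaving out each tumor. The fit was tested on simulated data.

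The homing genes and the lists of other genes were chosen with earlier results of these data known. All 9 homing genes, up to 4 called genes per list with the largest differences and the integrin partners are named. The values of some other genes are not reported here. *Cd99* and *Il1r1* were named after their values were seen. Promoter sequences are RefSeq's for GRCm38.p6. Python 3.11.15 and matplotlib 3.10.9 drew the plots.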

Additional observations from a re-analysis of the deposited data

How the results depend on the processing

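*Itgb2* kept its direction and call in all 13 alternative settings and with each tumor left out, and *Itgal* did so except under positive control scaling. No homing gene changed the sign of its Siah2 KO minus WT difference in these settings. The calls of *Vcam1*, *Selplg*, *Icam1* and *Itga4* lie near the threshold and are the ones that moved most. The cause was not tested. The equal variance test of the methods put all 9 homing genes on the same side of the threshold. Over the 13 settings the adjusted p ran from 0.000354 to 0.0487 for *Itgb2*, 0.000802 to 0.209 for *Itgal*, 0.00123 to 0.295 for *Sele*, 0.00888 to 0.42 for *Icam2*, 0.0118 to 0.606 for *Selplg*, 0.000581 to 0.329 for *Vcam1*, 0.038 to 0.563 for *Icam1*, 0.0412 to 0.839 for *Itga4* and 0.0178 to 0.894 for *Itgb1*.

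With median scaling the differences were 0.49 for *Sele* and 0.24 for *Selplg*, no longer called, and −0.32 for *Itgb1*, now called. With quantile normalization they were 0.46 for *Sele* and 0.093 for *Selplg*, no longer called, and −0.31 for *Itgb1*, now called. With the 10 reference genes of smallest spread, *Icam1* at 0.59 and *Itga4* at 0.40 were called and *Vcam1* at −0.35 was not. Positive control scaling gave 95 calls over all probes in place of 316 and 1 among the homing genes in place of 6, with *Icam2* at 0.47, *Vcam1* at −0.55, *Sele* at 0.59, *Selplg* at 0.34 and *Itgal* at 0.69 not called. *Icam1* and *Itga4* were called with a filter at a mean of 20 and with an intensity trend, at 0.55 and 0.36, and with a pseudocount of 10, at 0.53 and 0.35. With unequal variances *Vcam1*, at −0.39, was not called.

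The labels do not say what a shared replicate number stands for. Deviations of same-numbered tumors from the group means correlated at 0.035, 0.05, 0.17 and 0.35 for replicates 2, 3, 5 and 6, not all high enough to treat the tumors as pairs. With the replicate number as a block over the 8 tumors with a partner of equal number in the other group, *Icam2* at 0.69 and *Vcam1* at −0.43 were not called, and without the block in the same 8 tumors *Vcam1* at −0.43 and *Selplg* at 0.47 were not called.

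Relative to the mean of the leukocyte genes, *Selplg* at 0.027 was not called, *Itga4* changed sign to −0.12 and *Itgb1* at −0.54 was called. With each tumor left out, the differences ran from 0.40 to 0.64 for *Icam1*, −0.47 to −0.28 for *Vcam1*, 0.40 to 0.58 for *Selplg*, 0.24 to 0.43 for *Itga4* and 0.28 to 0.36 for *Selplg* relative to leukocyte genes. The count over all probes ran from 268, without WT replicate 3, to 334, without KO replicate 6, and that of homing genes from 4 to 6.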
